A study of Mus musculus with 12 samples.

Results

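The genes described here were 10 clock genes of mouse liver. They comprised the clock repressors Per1, Per2, Per3, Cry1 and Cry2, the nuclear receptor repressors Nr1d1 and Nr1d2 (REV-ERBα and REV-ERBβ), and the PAR bZIP output factors Dbp, Tef and Hlf. They were taken from the expression table by gene symbol, which gave 10 of its 24537 genes. All 10 were tested, since each had an FPKM (fragments counted on the exons of a gene, scaled to their length and to the depth of the library) of at least 1 in at least 3 of the 12 libraries.

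The study asked how gene expression in liver changed under caloric restriction (CR) before and after a slowing of hepatic protein synthesis. RNA-Seq was done on livers of 12 male C57Bl/6J mice, 6 weeks old at the start and housed individually, in groups of 3: control (Con) and CR mice taken on day 25 of the diet, and the same on day 30. Con mice ate ad libitum. CR mice received a fortified form of the diet with 30% less calories, adjusted weekly to body weight and given once a day at midday. By the methods, lights were on from morning to evening, so this meal fell in the light phase. The methods also state that mice were labeled with heavy water in the days before sacrifice. No gene was altered in any group, and each library came from a separate mouse. The fixed hour of feeding and the fortified diet went with the restriction in every CR mouse. The amount of food, its make-up and the hour of feeding therefore cannot be told apart. The time of day at which livers were taken was not given in the sources used here, and its part in any result was not tested.

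In the mammalian clock, CLOCK and BMAL1 (encoded by Arntl) bind E-boxes and drive transcription of Per, Cry, Nr1d and Dbp genes. PER and CRY proteins then join in a complex that represses CLOCK and BMAL1. REV-ERB proteins repress Arntl and Clock through elements that ROR receptors occupy as activators, and DBP, TEF and HLF activate genes with D-boxes while NFIL3 represses them. In liver the transcripts of these genes peak at different hours of the day, and the hour of feeding is a known time cue for the liver clock.

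Depth, as recovered from the values, was 15749909 to 23349211 reads per library, with 78.1% to 84.26% of reads on exons. Correlations between libraries on the log2 scale lay between 0.9784 and 0.9952. Hepatocyte markers (7 of a list of 8 were in the table) summed to 37700 to 51500 FPKM in Con and 50300 to 64100 FPKM in CR livers. Kupffer cell markers (6 genes) summed to 38.6 to 63.1 FPKM in Con and 23.9 to 31.6 FPKM in CR livers at day 25, and to 33.1 to 49.4 and 33.0 to 44.1 FPKM at day 30. Stellate cell markers were at 45.7 to 58.4 FPKM in Con and 60.5 to 79.5 FPKM in CR livers, endothelial markers at 32.3 to 50.5 and 42.1 to 51.7 FPKM, cholangiocyte markers at 10.2 to 17.8 and 7.57 to 16.5 FPKM, and lymphocyte markers at 0.989 to 1.77 and 0.481 to 1.18 FPKM. Erythroid markers reached 193 to 1110 FPKM in Con and 334 to 1010 FPKM in CR livers. No marker was at 0 in every library, and the part of cell composition in the results below was not tested. In bulk liver, fewer cells of a type and less RNA per cell cannot be told apart.

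In the paralog pairs Cry1 and Cry2, and Nr1d1 and Nr1d2, the first gene of each differed between diets by over 2-fold. The second did not pass the test at either day taken alone. The 250 bases before the transcript starts of these genes are shown for that reason. Sequences are those of RefSeq (build GRCm38.p6), 5′ to 3′ on the strand of the gene, and 9 of the 10 genes had an entry, all but Per2. Capitals mark matches on either strand to 6 motifs, which were the E-box CACGTG, the E-box variant CACGTT, the D-box forms TTATGTAA and TTACGTAA, the ROR and REV-ERB element TAGGTCA, and the cyclic AMP response element TGACGTCA.
Cry1 promoter, chr10:85185055-85185304, minus strand: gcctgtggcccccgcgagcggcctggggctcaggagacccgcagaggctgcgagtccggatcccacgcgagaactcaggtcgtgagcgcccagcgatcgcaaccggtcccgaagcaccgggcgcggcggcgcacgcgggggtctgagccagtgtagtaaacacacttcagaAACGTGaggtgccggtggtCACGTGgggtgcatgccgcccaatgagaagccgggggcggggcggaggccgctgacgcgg
Cry2 promoter, chr2:92434070-92434319, minus strand: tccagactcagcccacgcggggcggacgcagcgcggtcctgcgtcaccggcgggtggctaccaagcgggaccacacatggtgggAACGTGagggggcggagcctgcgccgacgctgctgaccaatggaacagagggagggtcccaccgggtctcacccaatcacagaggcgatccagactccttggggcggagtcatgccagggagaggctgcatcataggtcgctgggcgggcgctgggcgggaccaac
Nr1d1 promoter, chr11:98775378-98775627, minus strand: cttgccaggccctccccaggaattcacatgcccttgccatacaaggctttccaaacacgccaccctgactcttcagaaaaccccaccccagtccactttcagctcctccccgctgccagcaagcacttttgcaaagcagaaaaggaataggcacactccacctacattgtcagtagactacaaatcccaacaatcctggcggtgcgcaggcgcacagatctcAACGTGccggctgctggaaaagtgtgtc
Nr1d2 promoter, chr14:18239107-18239356, minus strand: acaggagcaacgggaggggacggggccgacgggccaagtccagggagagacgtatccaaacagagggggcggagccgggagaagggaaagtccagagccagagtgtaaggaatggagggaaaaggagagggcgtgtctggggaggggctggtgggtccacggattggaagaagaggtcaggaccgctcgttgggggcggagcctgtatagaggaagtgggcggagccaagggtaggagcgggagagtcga

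In the Cry1 window an E-box lay 60 to 55 bases before the start, and an E-box variant, on the opposite strand and so written AACGTG, lay 79 to 74 bases before it. Cry2 held only the variant, 166 to 161 bases before the start. Nr1d1 held the variant 28 to 23 bases before the start, and Nr1d2 had no match. Among windows not printed, Tef held an E-box 127 to 122 bases before its start, Per3 held TTATGTAA at 205 to 198 and at 158 to 151 bases, Hlf held TGACGTCA at 9 to 2 bases, and Per1 and Dbp had none. Of all 32851 windows of the same length, 6.02% held the E-box, 3.85% the variant, 0.819% TTATGTAA, 0.113% TTACGTAA, 2.23% TAGGTCA and 1.55% TGACGTCA. A match describes the letters in this window and is not a measured binding site.

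CR was compared with Con at each day to find which of these genes differed with the diet. Nr1d1 mRNA was 5.69-fold lower in CR livers at day 25 and 5.31-fold lower at day 30, as ratios of mean FPKM. Cry1 was 3.67-fold and 4.36-fold higher, and Per2 was 2.90-fold and 2.16-fold higher. The remaining 7 genes lay within 0.801 to 1.70 times the Con mean at both days. Calls required a Benjamini-Hochberg adjusted p under 0.1 in limma and a change of at least 2-fold on the log2(FPKM + 1) scale, which understates the change of genes with low FPKM. At day 25, 3 of the 10 genes were called (Per2 and Cry1 higher, Nr1d1 lower), against 1.48% of the 10593 genes tested. At day 30, 2 of the 10 were called (Cry1 higher, Nr1d1 lower), against 2.21% of genes tested. With no minimum fold, 3 genes passed at day 25 (14.9% of genes tested) and 4 at day 30 (24.7%), where Per1 and Per2 joined. CR and Con mice did not overlap for 7 of the 10 at day 25 (28.2% of genes tested) and for 4 of the 10 at day 30 (36.4%), so the last count was near that of all genes. The median log2 fold change of the 10 genes was 0.32 at day 25 and 0.22 at day 30, beside -0.04 and -0.07 for all genes tested.

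**Figure D1:**
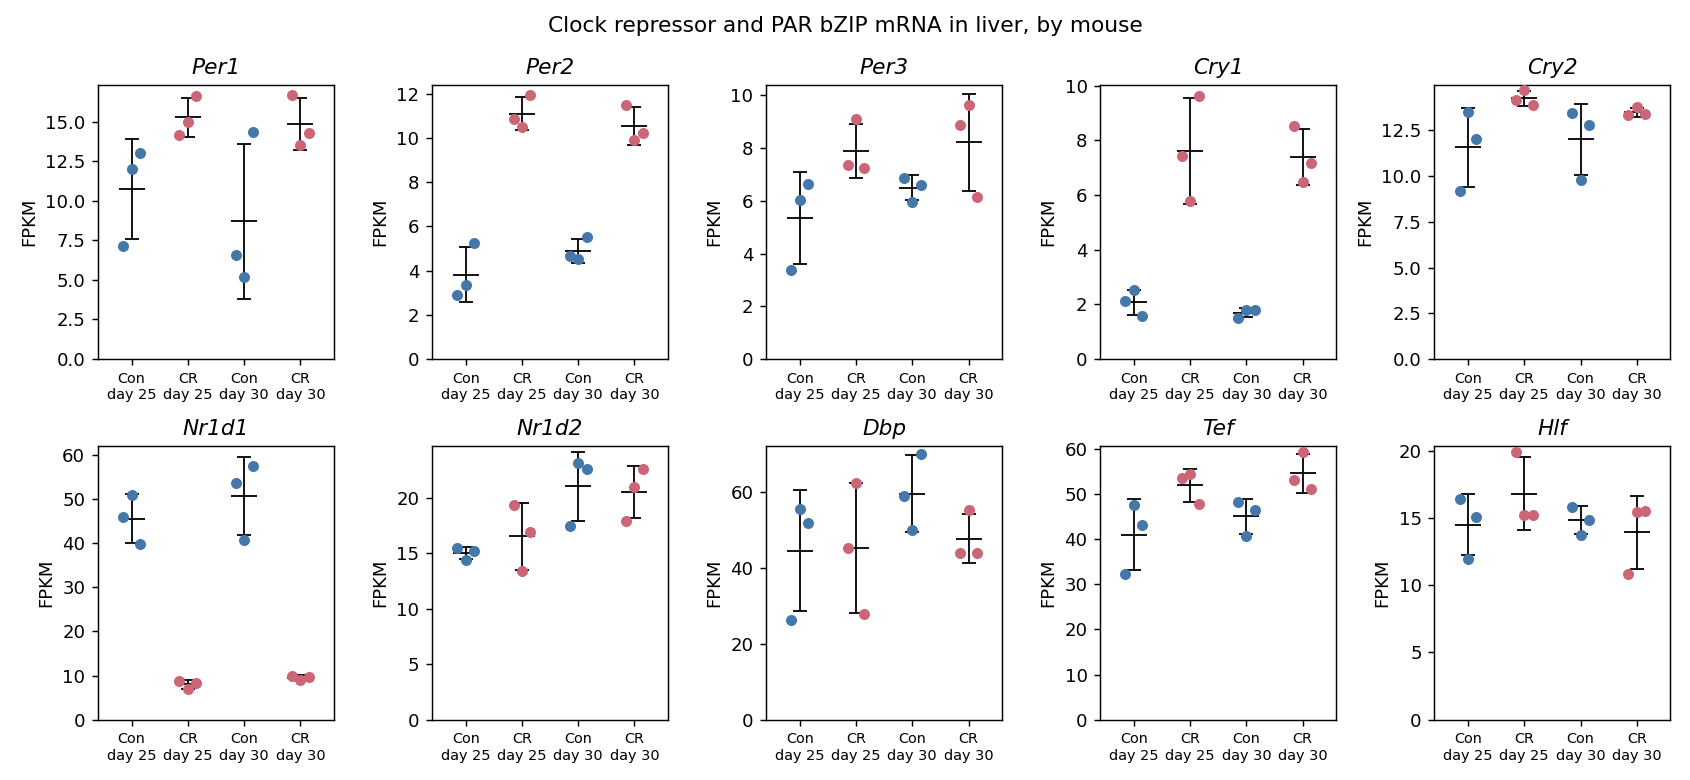
FPKM (linear axis from 0) of the 10 genes in each liver, by diet and day, with 1 point per mouse, Con in blue, CR in red, and bars for the mean ± SD of 3 mice. Nr1d1 fell from 39.8 to 57.4 FPKM in Con to 6.96 to 9.91 FPKM in CR livers, while Cry1 and Per2 were above every Con liver in every CR liver.

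The Per genes encode the PERIOD subunits of the repressor complex. Per2 (chr1:91415982-91459328, minus strand, mm10) was at 2.89, 3.35 and 5.23 FPKM in Con livers at day 25 and at 10.9, 10.5 and 11.9 FPKM in CR livers. The Con livers of day 30 were at 4.65, 4.53 and 5.502 FPKM and the CR livers at 11.5, 9.92 and 10.2 FPKM. Every CR liver lay above every Con liver at both days, and the 6 CR livers spanned a narrow range. Its log2 fold change was 1.35 (SE 0.148, adjusted p = 3.86e-04, limma) at day 25 and 0.97 (SE 0.148, adjusted p = 1.32e-03) at day 30. The value at day 30 lay just under 2-fold on this scale, and with a pseudocount of 0.1 in place of 1 it passed, at 1.09. Without CR11 it was 1.01 and without Con12 1.04, which also passed.

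Per1 (chr11:69100158-69109957, plus strand), which also responds acutely to glucocorticoids and cyclic AMP, was at 7.17, 12.01 and 13.05 FPKM in Con and 14.18, 14.98 and 16.64 FPKM in CR livers at day 25. At day 30 Con livers were at 6.58, 5.20 and 14.3 FPKM and CR livers at 16.7, 13.5 and 14.3 FPKM. The groups did not overlap at day 25, and at day 30 the Con12 liver lay among the CR livers. The log2 fold change was 0.51 (SE 0.28, adjusted p = 0.288, limma) at day 25 and 0.82 (SE 0.28, adjusted p = 0.0658) at day 30. Leaving out Con12 gave 1.20 (adjusted p = 0.00438) at day 30, past both thresholds, so that this liver decided the call. Per3 (chr4:151003655-151044665, minus strand), which is held to be a weaker repressor than its paralogs, was at 3.37, 6.04 and 6.66 FPKM in Con and 7.35, 9.09 and 7.23 FPKM in CR livers at day 25. At day 30 it was at 6.88, 5.97 and 6.62 FPKM in Con and 8.87, 9.64 and 6.13 FPKM in CR livers. Its groups were apart at day 25 and overlapped at day 30 through CR12, and the log2 fold changes of 0.52 (adjusted p = 0.124, limma) and 0.28 (adjusted p = 0.351) did not pass. With the label number of day 25 as a block, a pairing that no label states, the adjusted p (limma) was 0.0581 for Per1 and 0.0800 for Per3. Both were still without a 2-fold change. The share of all genes that passed in this fit was not taken, so these values cannot be set against it.

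The Cry genes encode the cryptochromes, the main transcriptional repressors of the complex. Cry1 (chr10:85131700-85185054, minus strand) was at 2.12, 2.52 and 1.58 FPKM in Con and 7.44, 5.78 and 9.63 FPKM in CR livers at day 25. Its FPKM at day 30 was 1.51, 1.78 and 1.79 in Con and 8.51, 6.48 and 7.18 in CR livers. The lowest CR liver was above every Con liver, with 80 to 139 reads behind each Con value at day 25 and 273 to 581 behind each CR value. The log2 fold change was 1.47 (SE 0.160, adjusted p = 3.86e-04, limma) at day 25 and 1.63 (SE 0.160, adjusted p = 7.6e-05) at day 30. It ranked 26 among the rises of all genes tested at day 25 and 37 at day 30.

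Cry2 (chr2:92403647-92434069, minus strand) did not follow its paralog in size. It was at 9.20, 13.5 and 12.0 FPKM in Con and 14.2, 14.7 and 13.9 FPKM in CR livers at day 25, and at 13.4, 9.78 and 12.8 FPKM in Con and 13.3, 13.8 and 13.4 FPKM in CR livers at day 30. CR livers lay above Con livers at day 25 and overlapped with them at day 30. The log2 fold changes of 0.30 (95% interval 0.005 to 0.585, adjusted p = 0.194, limma) and 0.17 (-0.123 to 0.458, adjusted p = 0.411) did not pass. The intervals of Cry1, 1.13 to 1.82 and 1.29 to 1.98, lay above those of Cry2 at both days, and this difference was not itself tested. Cry2 shares 149 of its 4342 exon bases with D930015M05Rik on the opposite strand.

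Nr1d1 and Nr1d2 encode the heme-binding receptors REV-ERBα and REV-ERBβ, which recruit the NCOR and HDAC3 corepressor. Nr1d1 (chr11:98767932-98775377, minus strand) was at 45.9, 50.9 and 39.8 FPKM in Con and 8.79, 6.96 and 8.23 FPKM in CR livers at day 25. Con livers of day 30 held 53.7, 40.7 and 57.4 FPKM and CR livers 9.91, 8.94 and 9.70 FPKM. The lowest Con liver was thus above the highest CR liver by a wide margin, and the livers within a group were close to each other. Means were 45.5 ± 5.58 and 7.99 ± 0.936 FPKM (SD, n = 3) at day 25 and 50.6 ± 8.81 and 9.52 ± 0.512 FPKM at day 30. Nr1d1 fell by 2.37 on the log2 scale (SE 0.137, adjusted p = 5.1e-06, limma) at day 25 and by 2.28 (SE 0.137, adjusted p = 4.02e-06) at day 30. Ranked by size of change among the 10593 genes, it stood at place 16 on day 25 and 39 on day 30.

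Nr1d2 (chr14:18204056-18239106, minus strand) gave 15.4, 14.4 and 15.2 FPKM in Con and 19.4, 13.4 and 16.9 FPKM in CR livers at day 25, and 17.4, 23.1 and 22.6 FPKM in Con and 17.9, 21.0 and 22.5 FPKM in CR livers at day 30. CR livers surrounded or lay within the Con livers at both days. The 95% interval of its log2 fold change was -0.190 to 0.424 at day 25 (adjusted p = 0.659, limma) and -0.339 to 0.275 at day 30 (adjusted p = 0.898), which leaves out changes of 2-fold in either direction.

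The transcript of Nr1d1 shares 263 of its 2721 exon bases with Thra, the thyroid hormone receptor α gene, on the opposite strand, and the counting was not stated to use strand, so reads in the shared bases cannot be told apart. Thra was at 9.78, 12.0 and 9.29 FPKM in Con and 3.75, 4.197 and 3.07 FPKM in CR livers at day 25. The values of day 30 were 10.36, 6.98 and 10.99 FPKM in Con and 3.25, 3.65 and 3.25 FPKM in CR livers. It was lower in every CR liver, with a log2 fold change of -1.28 (adjusted p = 6.22e-04, limma) at day 25 and -1.23 (adjusted p = 4.0e-04) at day 30. Nr1d1 gave 1846 to 2577 reads in Con livers at day 25 and Thra 386 to 544, and in CR livers of that day they gave 302 to 513 and 152 to 196 reads.

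Dbp, Tef and Hlf encode the PAR bZIP factors, through which the clock reaches detoxification and metabolic genes. None of them was called. Dbp (chr7:45705247-45710203, plus strand), a direct target of CLOCK and BMAL1, was at 26.3, 55.7 and 51.9 FPKM in Con and 45.4, 62.4 and 28.02 FPKM in CR livers at day 25. At day 30 it was at 58.96, 50.02 and 70.16 FPKM in Con and 44.1, 55.3 and 44.1 FPKM in CR livers. The diets overlapped at both days. The 95% interval of the log2 fold change was wide, at -0.619 to 0.659 at day 25 (estimate 0.02, adjusted p = 0.977, limma) and -0.948 to 0.330 at day 30 (estimate -0.31, adjusted p = 0.496). Without Con7, the lowest Con liver, the value at day 25 was -0.31. Dbp shares 539 of its 1837 exon bases with Sphk2 on the opposite strand, which was at 22.1 to 28.003 FPKM in Con and 20.3 to 26.6 FPKM in CR livers and did not pass at either day.

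Tef (chr15:81802673-81826863, plus strand) was at 32.2, 47.5 and 43.2 FPKM in Con and 53.5, 54.4 and 47.7 FPKM in CR livers at day 25. At day 30 it was at 48.2, 40.7 and 46.5 FPKM in Con and 53.2, 59.4 and 51.1 FPKM in CR livers. Every CR liver was above every Con liver of its day, although the log2 fold changes of 0.35 (SE 0.136, adjusted p = 0.134, limma) and 0.27 (SE 0.136, adjusted p = 0.195) did not pass. Tef shares 193 of its 4710 exon bases with the antisense gene Gm17597. Hlf (chr11:90336535-90390917, minus strand) was at 16.4, 12.0 and 15.1 FPKM in Con and 19.9, 15.2 and 15.2 FPKM in CR livers at day 25, and at 15.8, 13.8 and 14.8 FPKM in Con and 10.8, 15.4 and 15.5 FPKM in CR livers at day 30. These ranges overlapped, and the intervals of -0.137 to 0.537 and -0.435 to 0.239 lay within 2-fold.

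**Figure D2:**
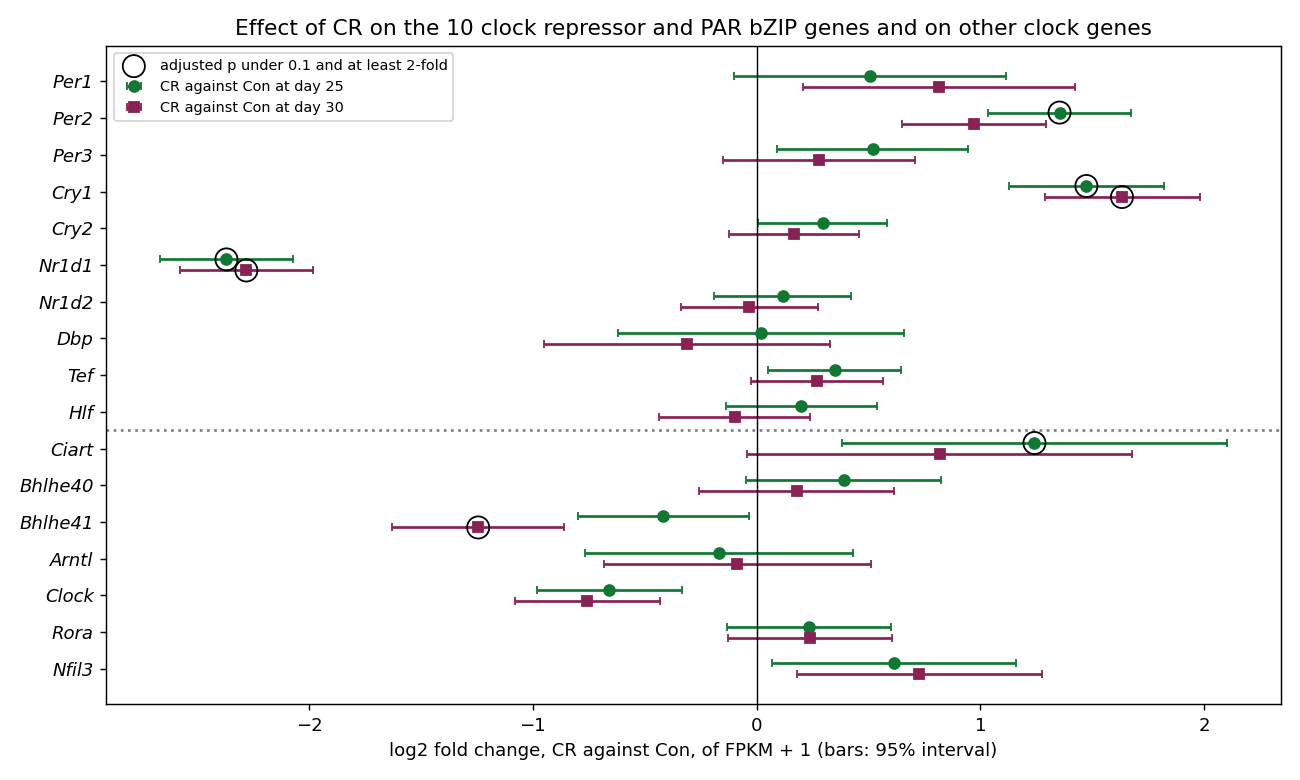
Log2 fold change of log2(FPKM + 1), CR against Con, for the 10 genes (above the dotted line) and other clock genes (below it), at day 25 (circles) and day 30 (squares), with bars for the 95% interval and rings for genes called. Nr1d1 is the only one of the 10 genes with a called fall (-2.37 and -2.28), and Cry1 (1.47 and 1.63) has the largest rises among them at both days.

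With both days in a single fit, and day as a covariate, the same 3 genes were called, against 1.66% of genes tested. Nr1d1 fell by 2.32 (adjusted p = 1.85e-08, limma), while Cry1 rose by 1.55 (adjusted p = 2.71e-06) and Per2 by 1.16 (adjusted p = 1.98e-05). With no minimum fold, 7 of the 10 passed, against 40.6% of genes tested. The smaller changes among them were those of Per1 (0.66, adjusted p = 0.0217, limma), Per3 (0.40, adjusted p = 0.0424), Tef (0.31, adjusted p = 0.0230) and Cry2 (0.23, adjusted p = 0.0717). All 6 CR livers lay on one side of all 6 Con livers for Per2, Cry1 and Nr1d1, against 12.5% of genes tested. Nr1d2 (0.04), Dbp (-0.14) and Hlf (0.05) did not pass.

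The days were compared because the study placed its transition between them. None of the 10 genes was called for a different CR effect at day 30 than at day 25 (limma interaction term, 0 of 10 also at an unadjusted p under 0.05 and 0 with voom on recovered reads), against 0.00944% of genes tested, which was 1 gene, Snord55, named after its values were seen. The largest such difference in size was that of Per2, with a 95% interval of -0.836 to 0.071 and an adjusted p of 1.00. For Nr1d1 the interval was -0.332 to 0.510 and for Cry1 -0.331 to 0.650. Between the days within CR mice none of the 10 genes was called (0.142% of genes tested). Within Con mice none was called either (0.0% of genes tested), and voom called none in both. At an unadjusted p under 0.05 (limma) stood 0 of the 10 within CR mice, beside 917 of the 10593 genes tested. Within Con mice 1 of the 10 did, beside 765 of the 10593, so this count was near that of all genes. For the interaction, where 0 of the 10 did, 366 of the 10593 did. The 1 gene within Con mice was Nr1d2, with 15.02 ± 0.525 FPKM at day 25 and 21.0 ± 3.12 FPKM at day 30 (SD, n = 3, log2 difference 0.45, adjusted p = 0.551, limma).

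Since FPKM are per length of transcript, the 10 genes could be ordered by level within each diet. In the 6 Con livers the median FPKM ran from Dbp (53.8), Nr1d1 (48.4) and Tef (44.9), whose ranges overlapped, to Nr1d2 (16.4), Hlf (14.96), Cry2 (12.4), Per1 (9.59), Per3 (6.33) and Per2 (4.59), each of which overlapped with the next. Cry1 (1.78) lay below all others without overlap. In the 6 CR livers Tef (53.4) and Dbp (44.8) came first and overlapped. Nr1d2 (18.6), Hlf (15.3), Per1 (14.6) and Cry2 (13.8) followed, then Per2 (10.7), which did not overlap with Cry2. The lowest Per2 value (9.917 FPKM) was barely above the highest of Nr1d1 (9.912 FPKM). Last came Nr1d1 (8.86), Per3 (8.11) and Cry1 (7.31), which overlapped. Nr1d1 thus went from the group with the most transcript to the group with the least, and Cry1 came level with Per3.

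Ratios of paralogs within a library do not depend on its scaling. Nr1d1 was at 1.76 to 3.53 times the FPKM of Nr1d2 in Con livers (median 2.79, n = 6) and at 0.426 to 0.553 times in CR livers (median 0.470, n = 6), so the more abundant REV-ERB transcript was Nr1d1 in every Con liver and Nr1d2 in every CR liver. The ratio of Cry1 to Cry2 was 0.113 to 0.230 in Con and 0.393 to 0.693 in CR livers, and Cry2 remained the more abundant in all 12. Per2 was at 0.555 to 0.856 times Per3 in Con and at 1.03 to 1.67 times Per3 in CR livers. These 3 ratios did not overlap between diets. The ratio of Per2 to Per1 overlapped (0.279 to 0.871 and 0.690 to 0.766), as did Dbp to Tef (0.817 to 1.51 and 0.587 to 1.15) and Dbp to Hlf (1.61 to 4.73 and 1.84 to 4.10). Across families, Cry1 was at 0.0282 to 0.0495 times Nr1d1 in Con livers and at 0.724 to 1.17 times in CR livers.

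**Figure D3:**
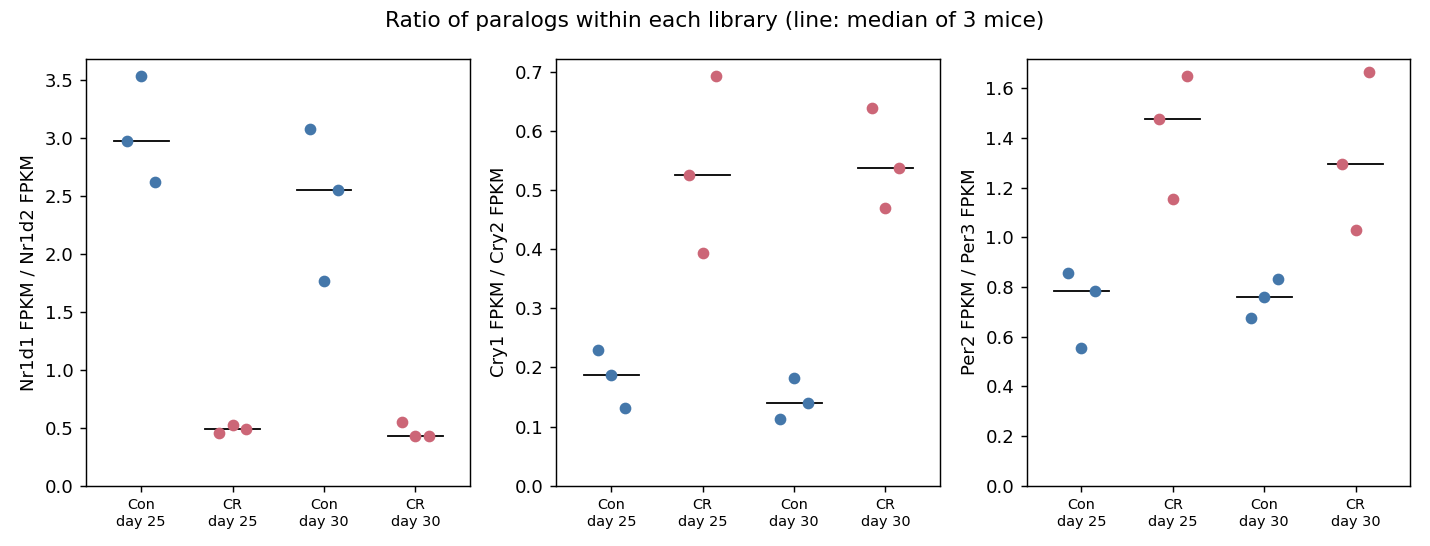
Ratio of FPKM within each library (linear axes from 0) for Nr1d1 to Nr1d2, Cry1 to Cry2 and Per2 to Per3, with 1 point per mouse, Con in blue, CR in red, and a line at the median of 3 mice. In none of the 3 ratios do Con and CR livers overlap, and Nr1d1 to Nr1d2 lies above 1 in all Con livers and below 1 in all CR livers.

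Spread within groups differed between the genes. The SD of log2(FPKM + 1) around the group means was 0.57 for Per1 in Con and 0.13 in CR livers, and 0.24 and 0.03 for Cry2, beside a median over all genes tested of 0.14 in Con and 0.15 in CR livers. Dbp was variable under both diets, with 0.44 in Con and 0.42 in CR livers. Nr1d1 (0.22 and 0.12) and Per2 (0.27 and 0.10) were less variable than Per1 in Con livers. Per3 (0.315 and 0.246) and Tef (0.22 and 0.106) also had the smaller SD in CR livers. Cry1 (0.17 and 0.261), Nr1d2 (0.155 and 0.213) and Hlf (0.168 and 0.246) had the larger SD in CR livers. These differences in spread were not tested.

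The deviations of single livers ran through several genes at once. Con7 lay below its group mean for Dbp (-0.67 on the log2 scale), Per3 (-0.50), Per1 (-0.48), Tef (-0.32) and Cry2 (-0.28), and for the clock repressor gene Ciart (-0.82), and above it for Arntl (0.51). In CR9 Dbp was low (-0.60) and Arntl high (0.70), and in CR8 Dbp was high (0.53) and Arntl low (-0.47). At day 30 Con12 was high for Per1 (0.77) and Ciart (0.97), and Con11 was low for both (-0.53 and -0.77). Nr1d1 deviated by -0.29 to 0.20 over the 12 livers, and no liver came into the range of the other diet for this gene. The hour of collection and the last meal of each mouse were not given in the sources used here, and their part in these deviations was not tested.

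**Figure D4:**
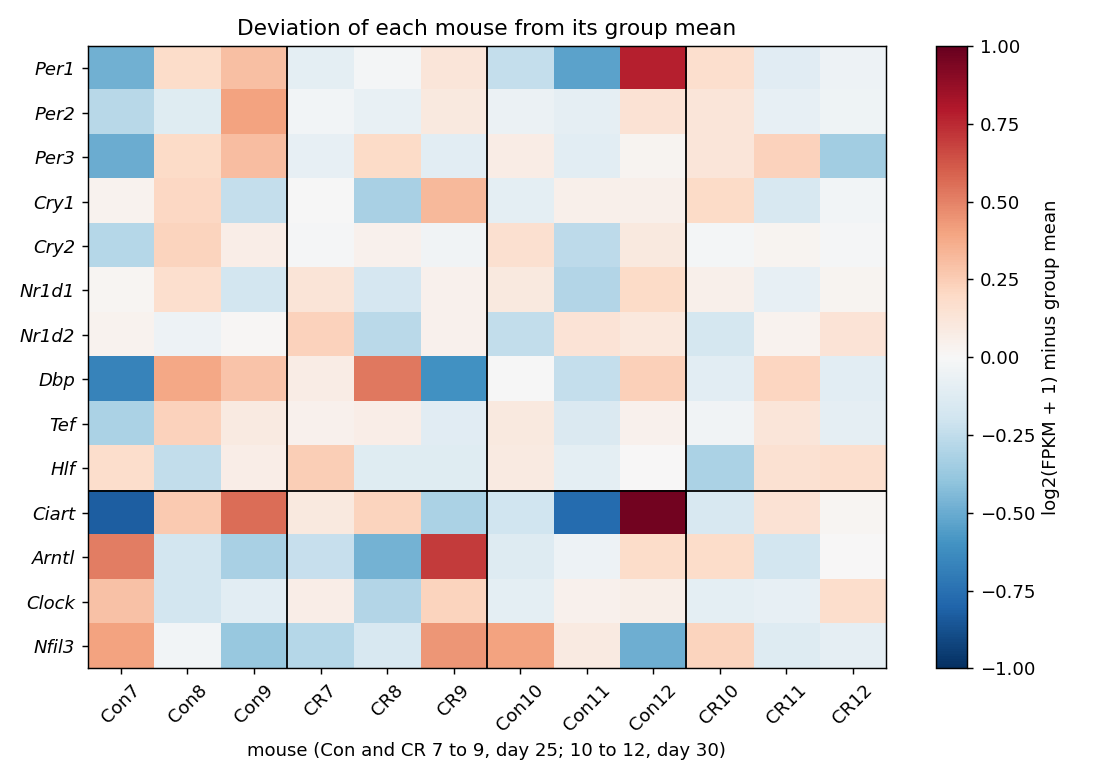
Deviation of each liver from the mean of its group of 3, in log2(FPKM + 1), from blue (below) to red (above), for the 10 genes (above the line) and Ciart, Arntl, Clock and Nfil3 (below it). Con7 and CR9 are low for Dbp (-0.67 and -0.60) and high for Arntl (0.51 and 0.70).

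Genes whose pattern was most like that of Dbp or Cry1 were sought among all genes tested, the 10 left out, by Pearson's r of log2(FPKM + 1) over the 12 livers, which share library, diet and day. For Dbp these were Scly (r = 0.926), Ermard (0.907) and Acad9 (0.905), and by deviations from the group means Ldb1 (0.979), Slc2a5 (0.967) and Wwox (0.965). For Cry1 they were Hspa2 (0.975), Lonrf3 (0.973) and Tbc1d8 (0.962), each higher in CR livers, with median FPKM of 0.718 and 2.34 for Hspa2 and 0.605 and 2.96 for Lonrf3 in Con and CR livers. By deviations from the group means they were Ccng2 (0.954), Tmem88b (0.915) and Map3k21 (0.915). The highest r among all genes tested is high by choice, and the values describe these 12 livers.

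On the activating side of the clock, Clock, Arntl and Rora, together with the D-box repressor gene Nfil3, passed the filter on low values. None of these 4 was called at either day. Clock fell by less than 2-fold, with 4.49 to 6.65 FPKM in Con and 2.23 to 3.61 FPKM in CR livers (log2 fold change -0.66, adjusted p = 0.0176, limma, at day 25 and -0.76, adjusted p = 5.72e-03, at day 30). Arntl was at 0.715 to 2.57 FPKM in Con and 0.555 to 2.64 FPKM in CR livers, with log2 fold changes of -0.17 (adjusted p = 0.760) and -0.09 (adjusted p = 0.859). Nfil3 gave 0.61 (adjusted p = 0.152) and 0.73 (adjusted p = 0.0677), and Rora gave 0.23 (adjusted p = 0.427) and 0.24 (adjusted p = 0.353). Below the filter, Npas2 had at most 0.117 FPKM and Arntl2 at most 0.696 FPKM.

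Among 19 further regulators of the clock, kinases, ubiquitin ligases, corepressors and auxiliary repressors, 18 were tested and 1 was called at each day. Ciart, whose product represses CLOCK and BMAL1 in addition to PER and CRY, was at 4.47, 10.6 and 13.3 FPKM in Con and 23.4, 25.6 and 17.4 FPKM in CR livers at day 25, which made it the called gene of that day (log2 fold change 1.24, adjusted p = 0.0715, limma). Without any 1 of Con7, CR7, CR8 or CR9 it no longer passed, the values being 0.83, 1.19, 1.13 and 1.40, nor did it without the filter on low values (adjusted p = 0.151). At day 30 it gave 0.82 (adjusted p = 0.179), with Con12 at 16.66 FPKM above the highest CR liver at 16.57 FPKM, and without Con12 it gave 1.30 (adjusted p = 0.0286). Bhlhe41, which encodes the E-box repressor DEC2, was called lower at day 30 (-1.24, adjusted p = 8.95e-04), at 1.36 to 2.96 FPKM in Con and 0.208 to 0.412 FPKM in CR livers, and its value at day 25 was -0.42 (adjusted p = 0.164). Its paralog Bhlhe40 (DEC1) did not pass, at 0.39 (adjusted p = 0.250) and 0.18 (adjusted p = 0.569).

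Rhythmic output genes, a list of 14 that were all tested, gave 5 called higher and 1 called lower at each day. Some of them are also on the lists of PAR bZIP targets or glucocorticoid-induced genes below, so control by E-boxes alone is not implied. Of all genes tested, 1.48% were called at day 25 and 2.21% at day 30, beside which the counts of this and the other lists stand. Their median log2 fold change was 0.96 at day 25 and 0.91 at day 30. Noct, which encodes the rhythmic phosphatase nocturnin, rose by 1.43 (adjusted p = 0.0380, limma) and 1.49 (adjusted p = 0.0217), but did not pass at day 25 without Con7 (1.22, adjusted p = 0.131) or CR7 (1.29, adjusted p = 0.117), nor at day 30 without Con10 (0.99). Usp2, a ubiquitin protease gene, rose by 1.65 (adjusted p = 6.28e-03) and 1.12 (adjusted p = 0.0238), with 0.95 at day 30 without Con10. Por, the electron donor of microsomal P450 enzymes, rose by 1.14 (adjusted p = 6.08e-03) and 1.65 (adjusted p = 4.12e-04), with 0.84 at day 25 without Con7. The other calls, named after their values were seen, were Lonrf3 at both days (1.10 and 1.24), Coq10b at day 25 (1.15), Nampt at day 30 (1.02) and the lower Pnkd at both days (-1.04 and -1.72).

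Described targets of the PAR bZIP factors are mostly genes of xenobiotic metabolism, and all 16 of the list were tested. Although Dbp, Tef and Hlf themselves were not called, 5 of the 16 were called higher at day 25 and 4 at day 30, and none was called lower, with medians of 0.50 and 0.63. Fmo5, a flavin monooxygenase, was at 104 to 157 FPKM in Con and 338 to 448 FPKM in CR livers, with log2 fold changes of 1.68 (adjusted p = 2.09e-05, limma) and 1.48 (adjusted p = 2.67e-05). Cyp2a4 was at 0.104 to 0.275 FPKM in Con and 1.49 to 8.33 FPKM in CR livers (1.21, adjusted p = 0.0112, and 2.51, adjusted p = 8.18e-05), although it is nearly identical to Cyp2a5 and the split of reads between them is uncertain. Por, above, belongs to this list as well, and Cyp2a5 at day 25 (1.32) and Sult1d1 at both days (1.01 and 1.30) were the other calls, named after their values were seen.

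Described targets of the REV-ERB and ROR receptors formed a list of 15, of which 13 were tested. They gave 0 called higher and 2 called lower at day 25, and 1 called higher and 4 called lower at day 30. The median log2 fold change was -0.66 and -0.76. Elovl3, a fatty acid elongase gene, was at 39.2 to 60.9 FPKM in Con and 1.42 to 24.1 FPKM in CR livers, with log2 fold changes of -1.56 (adjusted p = 0.0261, limma) and -3.94 (adjusted p = 7.6e-05). Insig2, an inhibitor of SREBP processing, was at 56.3 to 93.9 FPKM in Con and 24.8 to 62.8 FPKM in CR livers (-1.21, adjusted p = 8.91e-03, and -1.30, adjusted p = 3.51e-03), and without CR8 its value at day 25 was -0.93. Cyp8b1, the sterol 12α-hydroxylase of bile acid synthesis, gave -0.84 (adjusted p = 0.190) and -3.01 (adjusted p = 4.47e-04). At day 30 Lpl (-1.01) was lower and the gluconeogenic gene Pck1 (1.02) higher, both named after their values were seen. Arntl, Clock, Npas2 and Nfil3, described above, are also on this list.

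**Figure D5:**
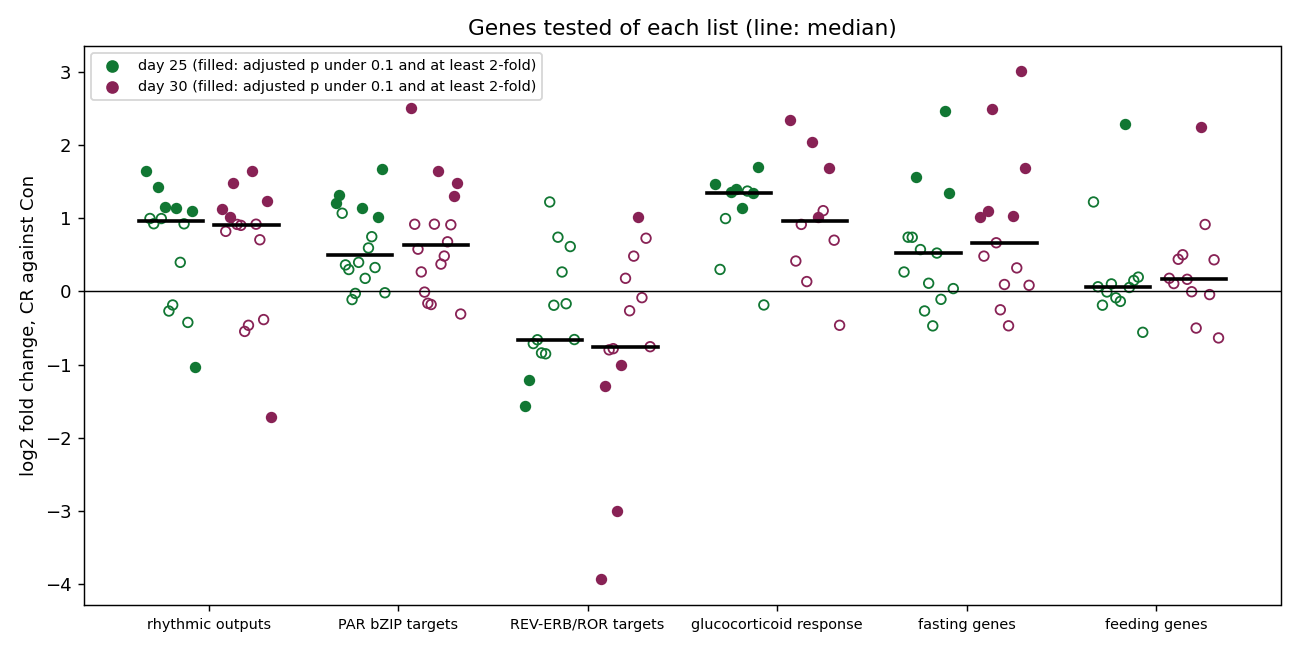
Log2 fold change of CR against Con for each tested gene of 6 lists at day 25 (green) and day 30 (purple), with filled points for genes called and a line at the median of each list. REV-ERB and ROR targets have medians below 0 (-0.66 and -0.76) and the rhythmic outputs medians above 0 (0.96 and 0.91).

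Genes that respond to fasting, feeding, glucocorticoids or body temperature were measured in the same livers. Of 10 glucocorticoid-induced genes, 6 were called higher at day 25 and 4 at day 30, with medians of 1.35 and 0.96 and none called lower. Fkbp5 was at 8.27 to 38.9 FPKM in Con and 50.05 to 97.99 FPKM in CR livers, with log2 fold changes of 1.47 (adjusted p = 8.09e-03, limma) and 2.35 (adjusted p = 3.04e-04). Zbtb16 gave 1.40 (adjusted p = 0.0184) and 2.04 (adjusted p = 1.65e-03), and the amino acid catabolic gene Tat gave 1.34 (adjusted p = 0.0149) and 1.69 (adjusted p = 2.87e-03). Per1 and Per2 are themselves known to be induced by glucocorticoids, and the part of this hormone in their values was not tested.

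Of 13 fasting-induced genes, 3 were called higher at day 25 and 6 at day 30, and none lower, with medians of 0.53 and 0.67. The phosphatidate phosphatase gene Lpin1 rose by 2.47 (adjusted p = 2.94e-03, limma) and 3.01 (adjusted p = 4.88e-04). Igfbp1, an insulin-repressed binding protein gene, rose by 1.56 (adjusted p = 0.0741) and 2.49 (adjusted p = 6.34e-03), and at day 25 it did not pass without Con7 (1.08, adjusted p = 0.240) or CR9 (1.06, adjusted p = 0.247), nor without the filter on low values (adjusted p = 0.156). Of 13 feeding-induced genes 12 were tested and only Thrsp, a lipogenic gene, was called, with 2.29 (adjusted p = 3.86e-04) and 2.24 (adjusted p = 1.74e-04). Of 10 temperature-responsive genes 9 were tested and none was called by limma at either day, with 5 at an unadjusted p under 0.05 at each. At that level stood 2635 of the 10593 genes tested at day 25 and 3353 at day 30. The part of feeding, fasting and hormone state in the values of the 10 clock genes was not tested.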

How the data were processed

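The 12 liver libraries were sequenced as paired-end reads on a single lane, and the authors aligned them to mm10 with BWA. The authors used CASAVA 1.8.2, FastQC and, for their own tests, DESeq2. The deposited values are FPKM, and by the header of the table HOMER made them from exon reads of 1 transcript per gene, with no stated use of strand.

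Whole reads were recovered from 1500 low values per library, 100% of which fell within 0.1 of a whole read, and these gave the depth. Genes entered the tests (10593) if FPKM reached 1 in 3 or more libraries. limma 3.58.1 (R 4.3.3, eBayes with trend) was fitted to log2(FPKM + 1), either to the means of all 4 groups or to diet and day, with 2-sided tests. The fit was tested on simulated data. Python 3.11.15 drew the figures. Columns of Con mice at day 30 could be mapped to their group only, since their labels do not tell them apart.

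The 10 genes and all lists were chosen with earlier results of these data known. Named were all 10 genes, the detected activators, Ciart, Bhlhe40, Bhlhe41, from each other list at most the 3 largest called changes, and for Dbp and Cry1 the 3 most similar genes. Other names are marked where given, and some items under this rule are left out of the text. Alternatives covered pseudocount, filter, scaling, thresholds, single mice and the replicate number as a block. No label states a pairing of mice, and the replicate number served as a block in alternatives only. At day 25 deviations of same-numbered mice correlated by 0.106 to 0.368. Such correlations come from the same data, around means of 3 mice, and cannot show that mice were paired.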

Additional observations from a re-analysis of the deposited data

How the results depend on the processing

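Of 520 values of the 10 genes under alternatives, 500 kept their direction and side of the thresholds, 0 lost a call, 10 gained one and 10 reversed. At day 25 the number called stayed at 3 in all 26 alternatives. At day 30 it was 2 or 3, apart from 4 with no minimum fold and a range of 2 to 4 when single mice were left out (4 without Con12). Over both days it was 3, and 7 with no minimum fold. No call arose for the interaction or between days. Per2 at day 30 passed 2-fold with pseudocounts of 0.1 (1.09) and 0.5 (1.04), median-ratio scaling (1.04), quantile normalization (1.05) and voom on recovered reads (1.11), the last chosen after seeing the data. Reversals were confined to values that did not pass. Quantile normalization gave -0.0305 for Dbp at day 25 and 0.0237 for Nr1d2 at day 30, where median-ratio scaling gave 0.0448. With single mice left out, values ranged from -0.31 to 0.32 for Dbp, -0.52 to 0.0858 for Arntl at day 25, and -0.155 to 0.0564, -0.181 to 0.0611, -0.176 to 0.00814 and -0.0127 to 0.31 for Nr1d2, Hlf, Arntl and Bhlhe40 at day 30. No scaling moved the median of all genes by more than 0.1.

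With the replicate number as a block, 3 of the 10 genes were called at day 25, 2 at day 30 and, for the difference of days within CR, 0, the same as without it. At day 30, where only column names carry numbers for Con mice, same-numbered mice correlated by 0.0456 to 0.181, and in CR mice across days by -0.382 to 0.299. As at day 25, no pairing is stated for these mice.

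With 3 mice a group and at least 15749909 reads per library, the 95% intervals of Dbp at each day were the widest of the 10 genes, at -0.619 to 0.659 and -0.948 to 0.330.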
